A study of Arabidopsis thaliana with 12 samples.

Results

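Rubisco fixes carbon dioxide in the chloroplast stroma and is built from subunits of 2 genomes. The genes described here are rbcL (ATCG00490), the plastid gene for the large subunit, the 4 nuclear small subunit genes RBCS1A (AT1G67090), RBCS1B (AT5G38430), RBCS2B (AT5G38420) and RBCS3B (AT5G38410), and RCA (AT2G39730), the nuclear gene for Rubisco activase. They were chosen by function, to set small subunit beside large subunit transcripts in 4 genotypes, and are 6 of the 36917 gene IDs in the count tables. All 6 passed the filter on low counts. RNA-seq libraries were made from 4-d-old Arabidopsis thaliana seedlings of wild type (Col-0), of gun1 (gun1-103, SAIL_742_A11), of fug1 (fug1-3, SAIL_209_E08) and of the double mutant gun1 fug1 (gun1-103 fug1-3), with 3 libraries for each genotype. All had grown at 22 °C in white light for 16 h a day on medium with 1% sucrose, after 2 d in the dark at 4 °C. Each mutation is represented by 1 T-DNA insertion allele. Nothing in the labels says that the 3 libraries came from separate cultures, so p-values measure the spread between these libraries.

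The large subunit carries the catalytic site, is translated on plastid ribosomes and is folded by plastid chaperonins. The small subunit is translated in the cytosol, imported and processed, and joined to the large subunit with the help of dedicated assembly factors. Rubisco activase is an ATPase that removes inhibitory sugar phosphates from the active site. GUN1, a pentatricopeptide repeat protein of the plastid, is known for its role in retrograde signalling. FUG1 is a translation initiation factor of the plastid. The RBCS genes and RCA are known as light-induced nuclear photosynthesis genes that respond to the state of the plastid.

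The 4 RBCS genes are near copies, which limits how far reads can be assigned among them. RBCS1B, RBCS2B and RBCS3B lie side by side on the minus strand of chromosome 5 (15383167 to 15385320, 15380907 to 15382071 and 15376988 to 15378642), and RBCS1A lies alone on the minus strand of chromosome 1 (25048158 to 25049667), all in TAIR10.1. Coding identity was 96.7% to 97.3% among the chromosome 5 genes and 90.4% to 90.6% between RBCS1A and each of them. Of all 50-base windows of the transcripts, 1.42% of RBCS1A, 13.9% of RBCS1B, 21.4% of RBCS2B and 14.6% of RBCS3B also occur in another RBCS gene. The first 60 coding bases (RefSeq, TAIR10.1) show the kind of differences that separate them, with capitals at the 12 columns that are not shared by all 4 genes:
RBCS1A: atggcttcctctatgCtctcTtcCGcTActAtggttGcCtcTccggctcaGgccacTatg
RBCS1B: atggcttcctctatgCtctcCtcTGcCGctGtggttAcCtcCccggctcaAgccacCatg
RBCS2B: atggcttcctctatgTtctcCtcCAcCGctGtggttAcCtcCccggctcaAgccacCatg
RBCS3B: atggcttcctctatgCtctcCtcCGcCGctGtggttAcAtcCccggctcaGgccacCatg
How reads that match several genes were counted is not given in the sources used here, so the split among the chromosome 5 genes is uncertain, and the sum over the 4 genes is the firmer value.

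The nuclear genes also share short promoter elements. The G-box CACGTG, which is bound by bZIP factors such as HY5, occurred on either strand within 250 bases before the transcript start of RBCS1A, RBCS2B, RBCS3B and RCA, where the start is that of the annotated transcript model that begins nearest to the start codon. The same window holds it in 6.68% of 27443 nuclear genes. The I-box GATAAG occurred in all 4 RBCS promoters and in 12.6% of all windows, and the GT1 letters GGTTAA, found in 14.3%, occurred in none of the 5. RBCS1B had no G-box in its window. The following stretches, read 5′ to 3′ on the minus strand (RefSeq, TAIR10.1), carry these letters in capitals, and the paired I-box and G-box lie 18 bases apart in RBCS1A and 17 bases apart in RBCS2B and RBCS3B:
RBCS1A: GATAAGattcatggaattatcttcCACGTG
RBCS2B: GATAAGattatggagttttctgcCACGTG
RBCS3B: GATAAGataatggagttttctgcCACGTG
RBCS1B: GATAAGATAAGggtgtcaacacctttcctt
RCA: ataaacatattcCACGTGgaccaatcaaaa
These lie at chr1:25049503-25049532, chr5:15382189-15382217, chr5:15378518-15378546, chr5:15385296-15385325 and chr2:16573579-16573608, in the order printed. Longer transcript models are annotated for 4 of these genes, so the stretches of RBCS1A, RBCS3B and RCA lie wholly, and that of RBCS1B partly, inside a longer model of the same gene. In RBCS1B the I-box letters overlap with a second copy of themselves. The plastid genome is read by other polymerases, and rbcL has a promoter of the bacterial type, whose pair of sequence elements is in capitals here:
rbcL promoter: TTGCGCtatacatatgaaagaataTACAAT
It lies on the plus strand of the plastid genome at 54745 to 54774, starts 213 bases before the rbcL coding start and has 18 bases between both elements. With 16 to 19 bases between them, these exact letters occurred before 1 of 85 plastid genes, and the looser form TTGNNN with TANNNT before 43 of 85. The exact letters were taken from rbcL, so the 1 gene is rbcL itself and the low count follows from that choice. A match of letters is a description of the sequence and no test of binding.

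Total counts ranged from 8519197 to 12360838 per library, and plastid genes took 53.4% to 84.4% of them. Levels are in CPM, a gene's share of the library total on a fixed scale, after adjustment by TMM, edgeR's factor for library composition. GUN1 stood at 7.2 to 9.4 CPM in gun1 and 7.9 to 10.7 in gun1 fug1, against 29.6 to 38.7 in wild type and 24.6 to 31.8 in fug1. FUG1 stood at 5.7 to 11.2 CPM in fug1 and 8.4 to 15.6 in gun1 fug1, against 26.3 to 44.4 in wild type and 13.9 to 33.8 in gun1. The library gun1 fug1 3 stood apart. Its TMM factor was 0.0723, against 0.80 to 2.05 in the others, 23881 gene IDs had no count in it against 13359 to 16417, and the genes RR3 and AT2G09250 held 31.0% of its counts. The tests of the Rubisco genes and the counts of the gene lists are therefore given with and without it.

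rbcL was the most abundant of the 6 genes in every library. Its counts were 2222661, 1865097 and 2022470 in wild type, 2453229, 2238833 and 1767070 in gun1, 1930648, 2164104 and 2311266 in fug1, and 1315304, 1300328 and 825458 in gun1 fug1. As scaled levels these were 88043, 98414 and 112847 CPM in wild type and 168758, 192142 and 135258 CPM in gun1. In fug1 they were 262230, 257729 and 223751 CPM. The gun1 and fug1 libraries all lay above every wild-type library, a separation in CPM in either direction that 28.1% of all genes tested also had in gun1 and 40.8% in fug1. In gun1 fug1 the levels were 99775 and 120743 CPM in the first and second libraries, within or just above the wild-type range, and 990266 CPM in gun1 fug1 3, where the small TMM factor multiplies the count.

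The test of rbcL depended on that library. In the fit of all 12 libraries, edgeR's quasi-likelihood test gave log2 fold changes against wild type of 0.73 ± 0.66 (SE, adjusted p = 0.553) in gun1, 1.31 ± 0.67 (adjusted p = 0.173) in fug1 and 2.02 ± 0.68 (adjusted p = 0.0363) in gun1 fug1. Of the 6 Rubisco genes, 0 of 6 were called in gun1, 0 of 6 in fug1 and 1 of 6, rbcL, in gun1 fug1, at an adjusted p under 0.05. At an unadjusted p under 0.05 the counts were also 0, 0 and 1. Over all 15371 genes tested, 5.94%, 17.8% and 21.9% were called in these comparisons. The rbcL call in gun1 fug1 was also lost on leaving out any one wild-type library (adjusted p 0.0953 to 0.154). With gun1 fug1 3 left out, rbcL rose in gun1 by 0.72 ± 0.20 on the log2 scale (adjusted p = 0.0265) and in fug1 by 1.31 ± 0.20 (adjusted p = 0.00016). It was not called in gun1 fug1, at 0.15 ± 0.22 (adjusted p = 0.67). Among the 16201 genes of that fit, 9.81%, 22.9% and 25.4% were called.

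In the fit of 11 libraries, rbcL was lower in the double mutant than in fug1, with a log2 fold change of -1.17 ± 0.23 (edgeR, adjusted p = 0.0132), where 0.716% of all genes were called. Against gun1 it was -0.58 ± 0.23 (adjusted p = 0.147), where 5.06% were called. The interaction, which asks whether the effect of the gun1 mutation is the same with and without the fug1 mutation, was -1.89 ± 0.31 (adjusted p = 0.00305), with 2.67% of genes called. With all 12 libraries these values were 0.70 ± 0.66 (adjusted p = 0.734), 1.29 ± 0.67 (adjusted p = 0.306) and -0.03 ± 0.93 (adjusted p = 0.995). None of the 6 genes was called in them, against 0.267%, 3.09% and 1.34% of all genes, and at an unadjusted p under 0.05 the count was 1, 0 and 0. The comparisons share libraries, so their values are not independent of each other.

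**Figure D1:**
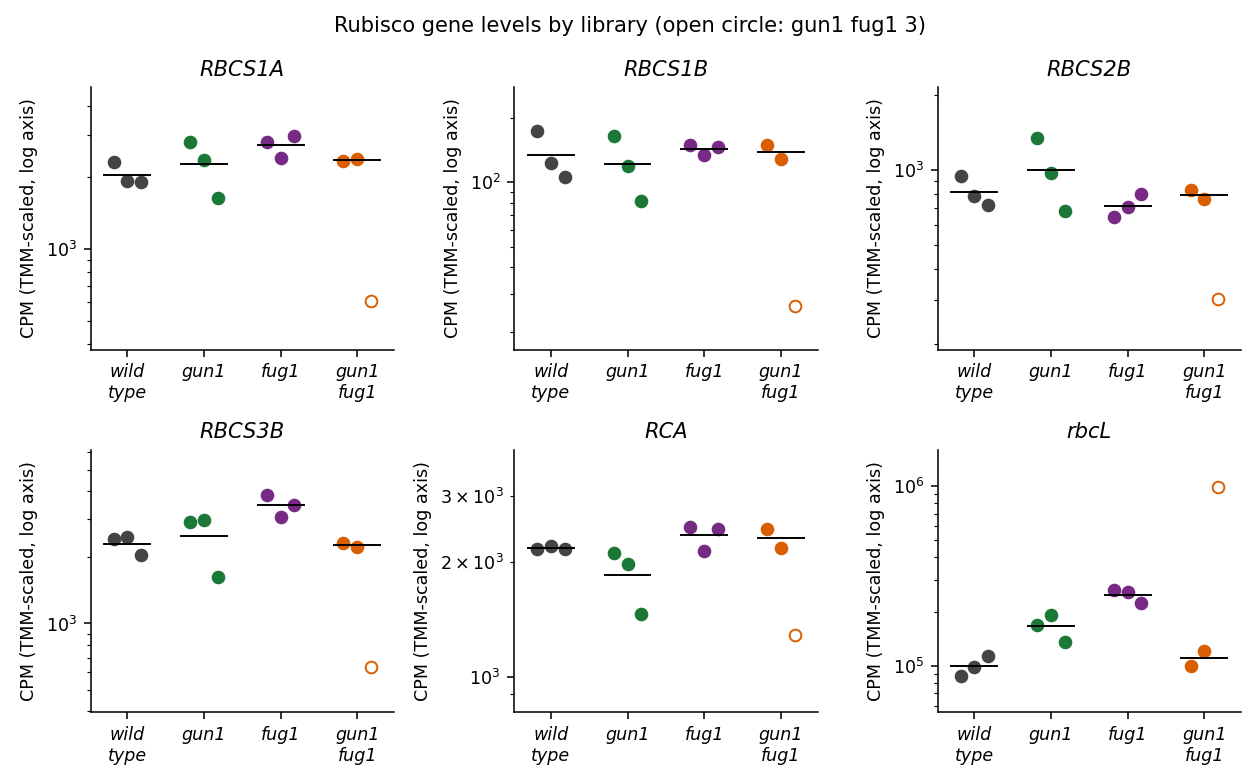
Level of each Rubisco gene in each library (CPM after TMM scaling, log axis) by genotype. Points are libraries, horizontal lines are means without gun1 fug1 3, and the open circle is gun1 fug1 3, which has the lowest level of every nuclear gene here and the highest of rbcL (990266 CPM).

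The size of the rbcL difference is relative to the other genes of a library. As a share of all counts, rbcL took 18%, 18.3% and 19.9% in wild type and 23.0%, 21.8% and 18.4% in gun1. It took 20.9%, 21.4% and 20.4% in fug1 and 12.5%, 15.3% and 7.16% in gun1 fug1. The fug1 libraries lay just above wild type, the gun1 libraries overlapped with it, and all 3 gun1 fug1 libraries lay below. Scaled by library totals without gun1 fug1 3, a choice made after seeing the data, rbcL was at 0.17 in gun1 and 0.16 in fug1, with -0.43 in gun1 fug1 on the log2 scale, and none was called. In the same fit the median gene was at -0.54, -1.16 and -0.62, so rbcL lay 0.71, 1.32 and 0.19 above it. Fitted among plastid genes alone, with all 12 libraries, rbcL was higher in gun1 by 1.21 (adjusted p = 0.00697), in fug1 by 1.06 (adjusted p = 0.00665) and in gun1 fug1 by 0.69 (adjusted p = 0.0445). The last was 0.47 (adjusted p = 0.168) without gun1 fug1 3. With all 12 libraries, that fit held 96 genes. How many of the 96 were called is not given here, so these calls cannot be set against a share. As a mean share of plastid counts, rbcL was lower in fug1 (25.3%) and gun1 fug1 (17.5%) than in wild type (26.5%). In gun1 the mean share was 27.8%. In whole seedlings, fewer green cells and less RNA per green cell cannot be told apart.

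The summed levels of root and of seed storage markers were higher in every mutant library than in wild type, from low levels. The summed level of 8 root and root hair markers was 1.66 to 6.36 CPM in wild type, 7.36 to 54.4 in gun1, 22.4 to 39.6 in fug1 and 27.6 to 65.3 in gun1 fug1. For 9 seed storage markers it was 5.91 to 15.5, 37.6 to 77.9, 35.2 to 55.9 and 56.9 to 86.4 CPM. For 7 markers of green cotyledon and leaf it was 6339 to 7129, 5225 to 7836, 7729 to 8788 and 4541 to 6911 CPM. Against wild type, 2, 6 and 8 of the root markers were called higher in gun1, fug1 and gun1 fug1. Of the seed storage markers 4 were tested, with 3, 4 and 3 called higher. No green marker was called. Among all genes tested, 3.52%, 9.94% and 12% were called higher. Without gun1 fug1 3 the counts were 2, 7 and 8 for root and 3, 4 and 4 for seed storage, with 1 green marker higher in fug1. Of all 16201 genes, 925, 2131 and 2349 were then called higher. The root hair genes EXPA7 and EXPA18 were at 0 in one wild-type library, LRX1 and PRP1 in gun1 fug1 3, and between 0 and 4 of the seed storage genes were at 0 in each library. The part of these tissues in the Rubisco values was not tested.

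None of the nuclear small subunit genes was called in the fit of all 12 libraries or in that of 11. RBCS1A, one of the main small subunit genes of seedlings and leaves, stood at 2311, 1935 and 1906 CPM in wild type and at 2803, 2377 and 1641 CPM in gun1. It stood at 2813, 2424 and 2986 CPM in fug1 and at 2336, 2393 and 607 CPM in gun1 fug1. All fug1 libraries lay above wild type, a separation in CPM in either direction that 40.8% of all genes tested also had. The gun1 libraries overlapped with wild type. The first and second gun1 fug1 libraries also lay above every wild-type library, and gun1 fug1 3 lay below. The log2 fold changes against wild type were 0.15 ± 0.38 in gun1 and 0.42 ± 0.38 in fug1, with -0.20 ± 0.38 in gun1 fug1, none of them called (edgeR, adjusted p 0.477 to 0.858). With gun1 fug1 3 left out they were 0.14 ± 0.20, 0.41 ± 0.20 and 0.20 ± 0.22, so the sign in gun1 fug1 turned, and none was called (adjusted p 0.140 to 0.705).

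RBCS3B, the other abundant small subunit gene, stood at 2420, 2462 and 2040 CPM in wild type and at 2909, 2944 and 1622 CPM in gun1. It stood at 3850, 3054 and 3471 CPM in fug1 and at 2323, 2229 and 631 CPM in gun1 fug1. The fug1 libraries lay above every library of wild type and of gun1 fug1. That separation from wild type, in either direction, was shared by 40.8% of all genes tested. The log2 fold change of RBCS3B in fug1 was 0.58 ± 0.39 (edgeR, adjusted p = 0.304), and without gun1 fug1 3 it was 0.58 ± 0.21 (adjusted p = 0.0524). In gun1 it was 0.11 ± 0.38 and in gun1 fug1 -0.42 ± 0.38, and with gun1 fug1 3 left out 0.10 ± 0.21 and -0.020 ± 0.24. The value in fug1 was called with wild type and fug1 fitted alone (0.57, adjusted p = 0.0151) and among nuclear genes alone without gun1 fug1 3 (0.57, adjusted p = 0.0439). The share of all genes called in these fits is not given here. By library totals without gun1 fug1 3, RBCS3B was called in the other direction in fug1, at -0.58. Between gun1 fug1 and fug1 the TMM-scaled log2 fold change of RBCS3B was -1.0 ± 0.39 (edgeR, adjusted p = 0.312) in the fit of 12 libraries. It was the only nuclear value of these 5 genes with an unadjusted p under 0.05 in that fit. Without gun1 fug1 3 it was -0.60 ± 0.24 (adjusted p = 0.307).

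RBCS2B stood at 939, 783 and 723 CPM in wild type and 1340, 973 and 683 CPM in gun1. It stood at 647, 706 and 798 CPM in fug1 and 827, 760 and 302 CPM in gun1 fug1. Every mutant group overlapped with wild type. Its log2 fold changes against wild type were 0.29 ± 0.33, -0.18 ± 0.33 and -0.37 ± 0.33, and 0.28 ± 0.21, -0.19 ± 0.21 and -0.039 ± 0.24 without gun1 fug1 3. RBCS1B, the weakest of the 4, stood at 174, 122 and 106 CPM in wild type and 164, 119 and 81.8 CPM in gun1. It stood at 149, 134 and 146 CPM in fug1 and 150, 128 and 26.4 CPM in gun1 fug1. Its groups overlapped as well, with log2 fold changes of -0.14 ± 0.45, 0.09 ± 0.45 and -0.36 ± 0.45. Over 11 libraries they were -0.15 ± 0.22, 0.086 ± 0.22 and 0.054 ± 0.25.

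Across the 5 nuclear genes, edgeR with TMM scaling, fitted over all genes and genotypes, called 0 of 5 in each of the 6 comparisons, with and without gun1 fug1 3, and DESeq2 and limma-voom also called 0 of 5. At an unadjusted p under 0.05, DESeq2 and limma-voom each gave 1 of 5 in gun1 fug1 against gun1 (RBCS2B) and 1 of 5 in gun1 fug1 against fug1 (RBCS3B), and DESeq2 also gave RBCS3B in the interaction. Without gun1 fug1 3, edgeR gave RBCS3B at an unadjusted p under 0.05 in fug1, in gun1 fug1 against fug1 and in the interaction. A missed threshold does not show that a gene is unchanged. The standard errors of 0.31 to 0.45 in these comparisons with wild type leave room for sizeable differences. The directions also rest on the scaling. By library totals without gun1 fug1 3, all 5 nuclear genes were called lower in fug1 than in wild type, at -0.58 to -1.35 on the log2 scale (edgeR, adjusted p 4.15e-05 to 0.0173), and RBCS1B (-0.71) and RCA (-0.80) were called lower in gun1, as was RBCS3B in gun1 fug1 (-0.61, adjusted p = 0.0456). Of all 16201 genes, that fit called 11874 lower in fug1, 5367 lower in gun1 and 5794 lower in gun1 fug1. Relative to its median gene, the 5 nuclear genes lay between -0.19 and 0.58 in fug1. RBCS1B lay at -0.17 and RCA at -0.25 in gun1, and RBCS3B lay at 0.011 in gun1 fug1.

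**Figure D2:**
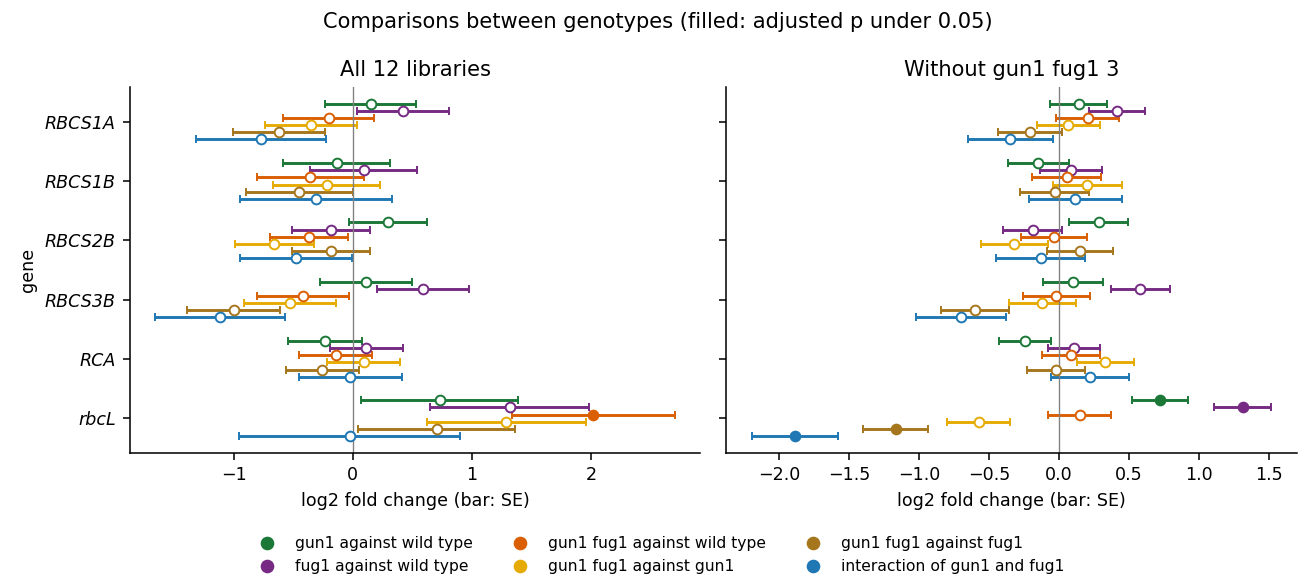
Log2 fold change of each Rubisco gene in each comparison, with bars for the standard error, in the fit of all 12 libraries (left) and without gun1 fug1 3 (right). Filled points have an adjusted p under 0.05: rbcL in gun1 fug1 against wild type (2.02) on the left, and rbcL in gun1 (0.72), fug1 (1.31), the double mutant against fug1 (-1.17) and in the interaction (-1.89) on the right.

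The ratio of small to large subunit transcripts needs no scaling between libraries, since both counts come from the same one. It still carries the balance of all nuclear to all plastid counts in each library. Plastid genes took 68.5% to 73.1% of counts in wild type and 81.7% to 84.4% in fug1, with the gun1 libraries in between. In the first and second gun1 fug1 libraries the plastid share was 70.9% and 70.8%, and in gun1 fug1 3 it was 53.4%. The part of this balance in the ratio was not tested. The log2 of summed RBCS counts over rbcL counts was -3.91, -4.21 and -4.56 in wild type and -4.55, -4.90 and -5.07 in gun1. It was -5.14, -5.35 and -4.92 in fug1, and -4.15, -4.45 and -9.30 in gun1 fug1. The fug1 libraries lay below all wild-type libraries, gun1 overlapped slightly with wild type, and the first and second gun1 fug1 libraries lay inside the wild-type range. As plain numbers, there were 19.1 ± 4.31 (SD, n = 3) rbcL counts for each RBCS count in wild type, 29 ± 5.17 in gun1 and 35.4 ± 5.28 in fug1. In gun1 fug1 there were 17.7, 21.9 and 632.

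Over the 4 genotypes, a two-sided exact permutation test gave p = 0.736 with all 12 libraries (adjusted p = 0.736 over 4 such tests). The same exact test gave p = 0.0191 (adjusted p = 0.0382) without gun1 fug1 3. The mean difference from wild type was -0.61 in gun1 (exact p = 0.2) and -0.90 in fug1 (exact p = 0.1, the smallest that 3 against 3 libraries allow). For gun1 fug1 it was -1.74 (exact p = 0.5) with 3 libraries and -0.07 (exact p = 0.9) with 2. By their means, wild type came first, then the first and second gun1 fug1 libraries, gun1 and fug1, and the libraries of each group overlapped with those of the next except between gun1 fug1 and gun1.

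**Figure D3:**
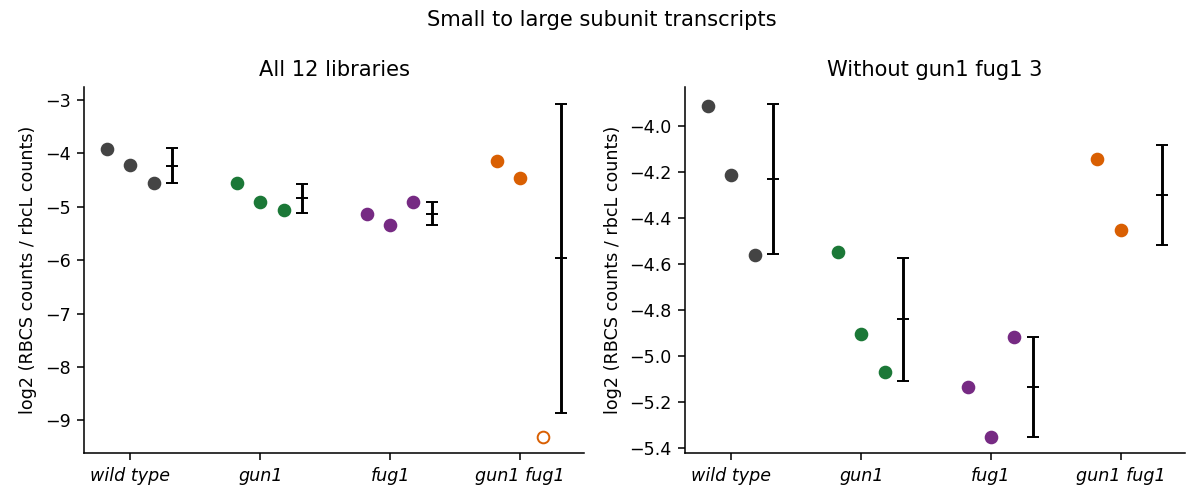
Log2 ratio of summed RBCS counts to rbcL counts per library by genotype, with the mean and standard deviation beside the points, for all 12 libraries (left) and without gun1 fug1 3 (right, n = 2 for gun1 fug1). The mean is -4.23 in wild type, -4.84 in gun1 and -5.13 in fug1, and stands at -4.30 in the first and second gun1 fug1 libraries.

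Shares within each genome do not depend on the counts of the other. The 4 RBCS genes took 3.84%, 3.41% and 3.18% of all nuclear counts in wild type and 4.05%, 3.18% and 2.25% in gun1. They took 3.40%, 3.48% and 3.79% in fug1 and 2.50%, 2.48% and 0.0243% in gun1 fug1. Each gun1 fug1 library lay below each wild-type and fug1 library. The 95% Wilson interval of such a share was at most 0.0291 percentage points to either side, for counting error only, and PCR copies without molecular identifiers are not independent molecules. Over the 4 genotypes the exact permutation p was 0.0517 (adjusted p = 0.103), and 0.218 without gun1 fug1 3. The share still depends on other abundant nuclear genes. With RR3 and AT2G09250 left out of the nuclear counts, it was 3.58% ± 0.345 in wild type and 3.58% ± 0.934 in gun1 (SD, n = 3). It was then 3.96% ± 0.199 in fug1 and 3.00%, 2.87% and 0.0729% in gun1 fug1. The gun1 fug1 libraries still lay below all wild-type and fug1 libraries.

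rbcL took 26.3%, 25.9% and 27.2% of all plastid counts in wild type and 30.5%, 28.4% and 24.5% in gun1. It took 25.6%, 25.4% and 25.0% in fug1 and 17.7%, 21.5% and 13.4% in gun1 fug1. The gun1 fug1 libraries were the 3 lowest of the 12. The exact permutation p over genotypes was 0.00545 (adjusted p = 0.0218), and 0.00552 (adjusted p = 0.0221) without gun1 fug1 3. Libraries with the fug1 allele differed by -5.72 percentage points within the GUN1 backgrounds (exact permutation p = 0.005, the smallest possible, adjusted p = 0.04), and by -4.68 points (exact p = 0.01, adjusted p = 0.08) without gun1 fug1 3. The first value averages 2 unlike differences, -1.18 points in fug1 against wild type and -10.3 in gun1 fug1 against gun1. The latter was -8.19 without gun1 fug1 3. The share is read against psbA, which encodes the D1 protein of photosystem II and took 48.4% ± 3.81 of plastid counts in wild type and 56.9% ± 7.63 in gun1, with 61.1% ± 2.23 in fug1 and 71.1% ± 5.57 in gun1 fug1 (SD, n = 3). With psbA left out, rbcL took 51.6% ± 4.90 in wild type and 65.0% ± 4.98 in gun1, with 65.2% ± 3.63 in fug1 and 60.4% ± 4.18 in gun1 fug1, so the difference from wild type changed sign in fug1 and in the double mutant.

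**Figure D4:**
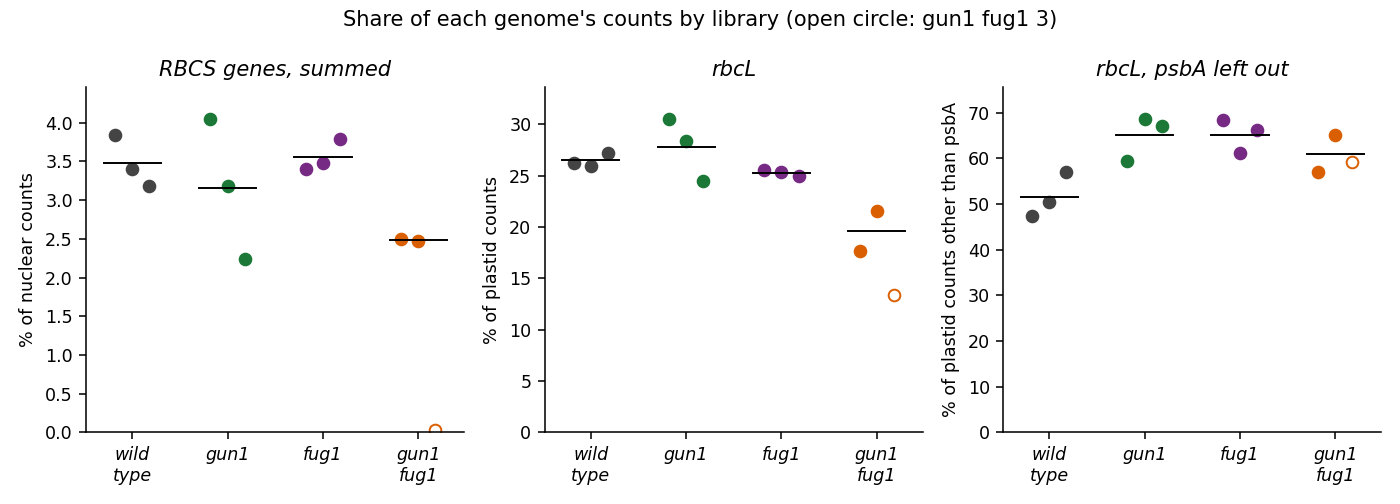
Summed RBCS counts as a percentage of nuclear counts, rbcL as a percentage of plastid counts, and rbcL as a percentage of plastid counts other than psbA, per library. Lines are means without gun1 fug1 3 and the open circle is that library. In the first panel each gun1 fug1 library lies below each wild-type and fug1 library, in the middle panel the gun1 fug1 libraries are the 3 lowest, and wild type has the lowest mean (51.6%) in the right panel.

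The neighbours of rbcL in the plastid genome did not follow it. atpB, which encodes the beta subunit of the plastid ATP synthase, lies 801 bases away on the opposite strand, and accD, which encodes a subunit of plastid acetyl-CoA carboxylase, starts 677 bases after rbcL on the same strand. For every 1000 rbcL counts there were 27.2, 26.8 and 12.5 atpB counts in wild type and 9.14, 4.23 and 4.09 in gun1. There were 2.97, 3.15 and 3.85 in fug1 and 5.87, 3.59 and 2.83 in gun1 fug1. Every mutant library lay below every wild-type library. How many plastid genes were so separated is not given here. accD gave 1.46 ± 0.848 counts per 1000 rbcL counts in wild type (SD, n = 3) and 0.196 ± 0.0859 in gun1, with 0.213 ± 0.0140 in fug1 and 0.371 ± 0.0570 in gun1 fug1. Over the other 11 libraries, atpB fell by 1.16 in gun1 (adjusted p = 0.0358), by 1.40 in fug1 and by 2.08 in gun1 fug1 on the log2 scale, and accD fell by 2.09 in gun1 (adjusted p = 0.0349, edgeR). With all 12 libraries none of these was called.

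The RBCS1A share of the small subunit transcripts was close in wild type, gun1 and fug1. RBCS1A made up 38.7% ± 1.87 of RBCS counts in wild type and 38.9% ± 1.84 in gun1, with 38.8% ± 1.37 in fug1 and 41.2% ± 2.35 in gun1 fug1 (SD, n = 3), with an exact permutation p of 0.359 over genotypes. Without gun1 fug1 3 it made up 42.4% ± 1.40 in gun1 fug1 (SD, n = 2), and the exact permutation p was 0.144 (adjusted p = 0.191). RBCS3B made up 43.5% ± 2.60, 42.2% ± 3.25, 49.0% ± 2.41 and 40.6% ± 0.497. RBCS2B made up 16.1%, 14.8% and 15.1% in wild type and 18.6%, 15.2% and 17.0% in gun1. It made up 8.68%, 11.2% and 10.8% in fug1 and 14.7%, 13.8% and 19.3% in gun1 fug1. The 3 fug1 libraries were the lowest in RBCS2B share and the highest in RBCS3B share of all 12. These shares were singled out after their values were seen and were not tested, and they rest on the assignment of reads between near copies. Levels per kilobase used the joined exons of all annotated models of a nuclear gene, such as 1894 bases in RBCS1B. RBCS2B has 1 model, with 935 bases, and for rbcL the length equals its 1440 coding bases. The order of the genes therefore rests partly on the annotation. Per kilobase of such exon, without gun1 fug1 3, wild type held 88051 ± 10140 CPM per kb of rbcL, 2082 ± 228 of RBCS3B, 2058 ± 243 of RBCS1A, 1321 ± 23.0 of RCA, 1109 ± 162 of RBCS2B and 90.1 ± 24.6 of RBCS1B (SD, n = 3). RBCS3B and RBCS1A differed by less than their SD. RCA and RBCS2B differed by more than the SD of either.

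RCA stood at 2166, 2214 and 2167 CPM in wild type and at 2116, 1983 and 1467 CPM in gun1. It stood at 2472, 2145 and 2456 CPM in fug1 and at 2443, 2189 and 1291 CPM in gun1 fug1. All 3 gun1 libraries lay below wild type, by a small margin in the highest. A separation in CPM in either direction was seen for 28.1% of all genes tested in gun1. The log2 fold changes of RCA were -0.23 ± 0.31 in gun1 (edgeR, adjusted p = 0.701), 0.11 ± 0.31 in fug1 and -0.14 ± 0.31 in gun1 fug1. Over 11 libraries they were -0.24 ± 0.19, 0.11 ± 0.19 and 0.087 ± 0.21. Set against the small subunit, RCA counts were 41.4% ± 4.18 of summed RBCS counts in wild type and 32.2% ± 3.73 in gun1, with 33.4% ± 0.460 in fug1 and 55.2% ± 23.7 in gun1 fug1 (SD, n = 3), or 43.3% and 39.7% in its first and second libraries. The gun1 and fug1 libraries all lay below the wild-type libraries. RCA took 1.42%, 1.42% and 1.44% of nuclear counts in wild type and 1.19%, 0.984% and 0.818% in gun1. It took 1.13%, 1.18% and 1.26% in fug1 and 1.08%, 0.984% and 0.0201% in gun1 fug1. Every mutant library lay below every wild-type library in this share, which was described after its values were seen and was not tested. By CPM, the fug1 libraries overlapped with wild type. The nuclear counts include RR3 and AT2G09250, and the RCA share without them is not given here. How many nuclear genes were separated in such a share, or in counts over RBCS counts, is not given here either. RCA overlaps the gene AT2G39725 at its end, which held almost no counts.

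Genes for the assembly and regulation of Rubisco were described by a list of 14, all of them tested. In gun1 none was called (median log2 fold change -0.30, against 0.02 for all genes tested), where 3.52% of all genes were called higher and 2.42% lower. In fug1, 5 of 14 were lower and none higher (median -0.37, all genes 0.00), where 9.94% of all genes were called higher and 7.88% lower. These were BSD2, a chaperone of the large subunit, at -0.90, MRL1, a pentatricopeptide repeat protein that stabilises rbcL mRNA, at -0.95, and CPNB1, a chaperonin 60 beta subunit, at -0.96, with CPNB4, another beta subunit, at -1.77 and CBBY, a phosphatase that degrades a Rubisco inhibitor, at -0.69. BSD2 stood at 14.1 ± 1.33 CPM in wild type and at 7.52 ± 0.0925 CPM in fug1.

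In gun1 fug1, 2 of the 14 were higher and 3 lower (median -0.32, all genes -0.03), where 12% of all genes were called higher and 9.88% lower. CPNB2, a chaperonin 60 beta subunit, rose by 1.47 ± 0.23 on the log2 scale (adjusted p = 9.94e-05, edgeR) and BSD2 fell by 1.50 ± 0.24 (adjusted p = 0.000163). The other called genes were the methyltransferase gene LSMT, higher, and RBCX2 and MRL1, lower, where the RBCX2 protein acts in holding large subunits together during assembly. CPNB1 stood at 11.4 ± 2.17 CPM in wild type and 6.46 ± 1.31 in gun1, with 5.86 ± 0.390 in fug1 and 21.3 ± 12.8 in gun1 fug1. With gun1 fug1 3 left out, the counts were 4 lower in gun1, 5 lower in fug1, and 2 higher and 3 lower in gun1 fug1. Of all 16201 genes of that fit, 664 were called lower in gun1 and 1583 lower in fug1. In gun1 fug1, 2349 were called higher and 1758 lower. The part of these genes in the rbcL values was not tested.

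**Figure D5:**
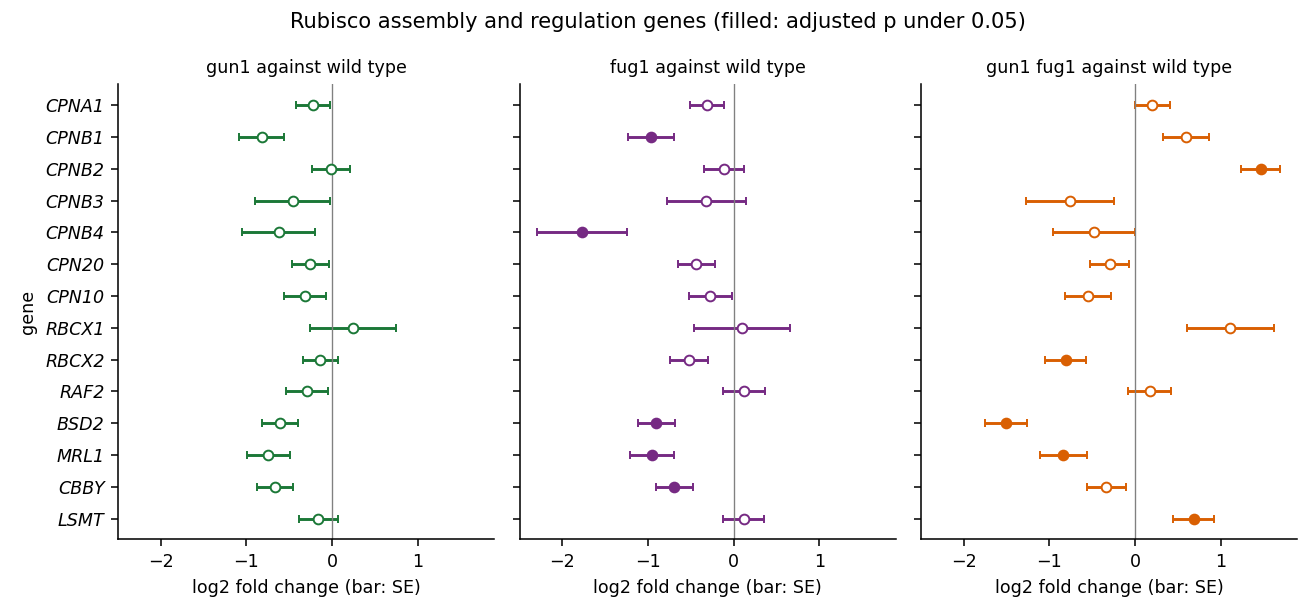
Log2 fold change against wild type of the 14 Rubisco assembly and regulation genes in each mutant, with bars for the standard error, in the fit of all 12 libraries. Filled points have an adjusted p under 0.05: 0 in gun1, 5 in fug1, all lower, and 5 in gun1 fug1, with CPNB2 (1.47) and BSD2 (-1.50) farthest out.

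Other genes of carbon fixation showed a mixed picture. Of 19 Calvin cycle genes, 18 were tested. In gun1, 1 was higher and 2 lower, in fug1 2 were higher and 3 lower, and in gun1 fug1 3 were higher and 2 lower, with medians of -0.08, 0.08 and -0.06. Among all genes tested, 3.52%, 9.94% and 12% were called higher and 2.42%, 7.88% and 9.88% lower. Without gun1 fug1 3 the counts were 2 higher and 3 lower, 2 higher and 3 lower, and 4 higher and 2 lower. Of all 16201 genes of that fit, 925, 2131 and 2349 were called higher and 664, 1583 and 1758 lower. CP12-2, a small protein that holds Calvin cycle enzymes in an inactive complex, fell in all 3 mutants, by 0.90, 1.26 and 1.31 on the log2 scale. SBPASE, sedoheptulose bisphosphatase, fell by 0.81, 1.08 and 1.01, and TKL2, a transketolase, rose by 1.21, 1.48 and 1.33. FBA3, a plastid fructose-bisphosphate aldolase, rose by 0.95 in fug1 and by 0.84 in gun1 fug1, and its value in gun1 was 0.69 (adjusted p = 0.0513, edgeR). Of 13 photorespiration genes, 11 were tested, with 0, 3 and 2 lower in the 3 mutants and none higher. These became 3, 4 and 2 lower without gun1 fug1 3, where 9.81%, 22.9% and 25.4% of all genes were called either way. Of 9 G-box and light regulators, 7 were tested, with none called in gun1 and fug1 and 1 higher (GLK1) and 1 lower (GBF1) in gun1 fug1. In 11 libraries all 9 were tested, with 1 higher in gun1, 2 lower in fug1 and 2 lower in gun1 fug1.

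Over the 11 libraries without gun1 fug1 3, the genes most like the Rubisco genes were ranked by Pearson's r of log2 CPM among 5880 genes. For the mean of the RBCS genes these were LTL1 (r = 0.95), THX (r = 0.92) and AT3G48460 (r = 0.89). For RCA they were AT4G00750 (r = 0.95), FIB4 (r = 0.94) and AT3G61870 (r = 0.94), and for rbcL ATCG00680 (r = 0.95), AT3G58730 (r = 0.94) and PA200 (r = 0.94). Among the members, RBCS1A followed RBCS3B (r = 0.87) and RBCS1B (r = 0.80) more closely than RBCS2B (r = 0.34), and rbcL had r of 0.72 with RBCS3B, 0.57 with RBCS1A, 0.11 with RCA, 0.071 with RBCS1B and -0.15 with RBCS2B. These values describe libraries that share scaling factors and genotypes.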

How the data were processed

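Counts per gene were deposited by the authors as raw whole numbers, 1 table per library. Per the submitters' processing notes, Trimmomatic, FastQC, TopHat2 2.1.1 and featureCounts were used with TAIR10. Annotation version, strandedness, RNA selection and the treatment of multiply matching reads are not given in the sources used here. Total RNA and an Illumina TruSeq kit were used, per the labels. Counts of 15371 genes passing filterByExpr were tested with edgeR 4.0.16 (R 4.3.3): TMM scaling, robust quasi-likelihood F test, all 12 libraries, genotype as the only factor, Benjamini-Hochberg over all genes. The procedure was tested on simulated counts. Ratios and shares were tested by two-sided exact permutation tests over libraries. Replicates differed beyond sampling noise (chi-square per degree of freedom of 7.15 or more), so all were kept. Sequences came from the RefSeq TAIR10.1 genome. Alternatives were DESeq2 1.42.0, limma-voom (limma 3.58.1), other scalings and filters, nuclear and plastid genes apart, compared groups alone, and each library left out. All 6 genes are named. From the assembly and Calvin cycle lists, called genes are named by smallest p, up to 3 for each list and comparison, and other called genes were named after their values were seen. Some genes of the assembly list are not reported here, and its counts and medians leave them out. Genes and lists were chosen with earlier results of these data known.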

Additional observations from a re-analysis of the deposited data

Results flagged for a closer look

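The interaction test of edgeR asks whether the gun1 mutation had the same effect in FUG1 wild-type and fug1 mutant seedlings. With all 12 libraries it called 1.34% of all genes. CPNB1 and CPNB2, from the list of 14 assembly genes, were among these, and none of the 6 Rubisco genes was. The gene rbcL was called only without gun1 fug1 3, where 2.67% of all genes were called. For rbcL without gun1 fug1 3 the interaction was -1.89 on the log2 scale (adjusted p = 0.00305), and with all 12 libraries it was -0.03. For CPNB1, a chaperonin 60 beta subunit, it was 2.38 (adjusted p = 0.00562), and 2.09 without gun1 fug1 3. For CPNB2, another chaperonin 60 beta subunit, it was 1.58 (adjusted p = 0.0175), and 1.72 without gun1 fug1 3.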

How the results depend on the processing

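Scaling and the library gun1 fug1 3 moved the results most, and the cause was not tested. Scaled by library totals, with or without gun1 fug1 3, the log2 fold changes in gun1 turned to -0.42 for RBCS1A, -0.27 for RBCS2B and -0.47 for RBCS3B. In fug1 they turned to -0.74 for RBCS1A, -1.09 for RBCS1B, -0.58 for RBCS3B and -1.05 for RCA. For rbcL by library totals, gun1 fug1 was at -0.69 against wild type, -0.85 against gun1 and -0.84 against fug1. Without gun1 fug1 3 these were -0.43, -0.60 and -0.59. Of the 6 genes, that fit called 2 in gun1, 5 in fug1 and 5 in the interaction. It called 1 in gun1 fug1 against fug1, and 1, RBCS3B, in gun1 fug1 against wild type. Of all 16201 genes it called 364 higher and 5367 lower in gun1, and 218 higher and 11874 lower in fug1. It called 849 higher and 5794 lower in gun1 fug1 against wild type, and 2748 higher and 30 lower against fug1. In the interaction these were 7175 and 40. With nuclear and plastid genes apart, 1 of the 6 was called in gun1, 1 in fug1 and 1 in the interaction. There rbcL was at -0.53 in gun1 fug1 against gun1 and -0.38 against fug1. Without gun1 fug1 3 as well, 1, 2 and 1 were called and 0 in gun1 fug1 against wild type, where RBCS1A was at 0.20, RBCS1B at 0.047 and RCA at 0.080. There rbcL was at -0.62 against gun1 and -0.41 against fug1. The share of all genes called with nuclear and plastid genes apart is not given here.

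The call of rbcL in gun1 fug1 against wild type became 0 of 6 by library totals, limma-voom, the stricter filter (a mean of at least 50 counts, with 1 CPM or more in 3 libraries) and the compared groups alone. In fug1, 1 gene was called with no filter and 2 with the compared groups alone. The share of all genes called with these 2 settings is not given here. DESeq2 gave rbcL no adjusted p. With the stricter filter RBCS1B in fug1 was at -0.018 and the rbcL interaction at 0.35, and with RLE factors the rbcL interaction was at 0.0015. With psbA left out, the rbcL share of plastid counts had an adjusted exact p of 0.0847 over genotypes. The differences in that share turned to 4.35 points for the gun1 allele, 4.52 for the fug1 allele, 13.6 in fug1 and 8.87 in gun1 fug1.

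The replicate block called 0 of 6 in gun1 fug1 against wild type, where rbcL was at 1.63 (adjusted p = 0.0668), and changed no other call of the 6 genes. Over all genes it called 717 higher and 581 lower in gun1, against 541 and 372. Over the 18 pairs of libraries with the same number, deviations from the group means had r of -0.082 to 0.36, over 0.1 in 3 pairs. Between wild type and gun1 these were 0.31, 0.039 and 0.36 for numbers 1, 2 and 3, the first and last above any pair of unlike numbers (at most 0.17). Since not every pair passed 0.1, the numbers were not taken to pair the libraries. The numbers are those of the sample titles. For gun1 fug1 the count tables carry a number 1 higher, and a block by that number was not run.

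With each library left out in turn, 0 to 1 of the 6 genes were called in gun1, in fug1, in gun1 fug1 against wild type, in gun1 fug1 against fug1 and in the interaction. The log2 fold change against wild type ranged in gun1 from -0.052 to 0.31 for RBCS1A, -0.44 to 0.067 for RBCS1B and -0.039 to 0.32 for RBCS3B, and in fug1 from -0.093 to 0.29 for RBCS1B. In gun1 fug1 it ranged from -0.47 to 0.20 for RBCS1A, -0.71 to 0.054 for RBCS1B and -0.33 to 0.087 for RCA. For rbcL it ranged from -0.58 to 1.70 against gun1, -1.17 to 1.12 against fug1 and -1.89 to 0.38 for the interaction. The adjusted exact p over genotypes ranged from 0.0127 to 0.111 for the rbcL share and 0.0382 to 0.905 for the subunit ratio. The ratio differed by -1.18 to 0.11 for the gun1 allele, -2.04 to 0.54 between gun1 fug1 and gun1, and -1.74 to 0.83 between gun1 fug1 and fug1. In percentage points, the rbcL share differed by -6.73 to -4.68 for the fug1 allele and -0.033 to 2.99 in gun1, the RBCS share by -0.76 to 0.14 in gun1 and -0.068 to 0.26 in fug1, and the RBCS1A share by -0.85 to 1.14 in gun1 and -0.92 to 0.78 in fug1.

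Pairwise exact tests of 3 against 3 libraries cannot go below p = 0.1.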
